A study of Mus musculus with 29 samples.

Results

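Vesicle trafficking and synaptic release genes were followed in the hypothalamus of tumour-bearing mice. Members were all genes whose array symbol begins with Rab and a digit, Snx, Vps, Syt, Stx, Vamp, Snap, Sv2 or a subunit name of the adaptor complexes AP-1 to AP-4. This rule by name gave 115 of the 8726 named genes: 39 Rab genes, 33 Snx and Vps genes, 15 adaptor subunit genes and 28 Syt, Stx, Vamp, Snap and Sv2 genes. It used no measured value. A few members share only a name with their group: Rab10os is transcribed opposite Rab10, Rab11fip1 and Rab5if encode partners of Rab proteins, and Snap91 encodes the clathrin assembly protein AP180.

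Hypothalamus RNA came from female BALB/c mice aged 8 weeks that received 100000 4T-1 cells in 100 µl PBS under the skin, or PBS alone, and were killed 18, 72 or 192 h later. 4T-1 is a transplantable mammary carcinoma line of mice. Tumour and PBS RNA were labelled with Cy3 and Cy5 and hybridized together on in-house printed oligonucleotide arrays, so each value below is a log2 ratio of tumour over PBS within an array. Gene values use 16 of 29 arrays, from 9 biological replicates with 3 at each time, since on the other prints the given probe names matched the spot intensities poorly. Replicate 1 of 72 h and of 192 h was poly(A) RNA on 1 array with tumour in Cy5, and the other replicates were total RNA on 2 arrays with the dyes exchanged. The direction of every ratio is likely rather than settled, because the scanner output calls its channels A and B, and these were matched to Cy3 and Cy5 by the order in the labels. The opposite order would turn the sign of every ratio below. The labels do not say whether a replicate pooled animals, so the p-values reflect only how far these samples differ among themselves, which may be partly technical.

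Rab proteins are small GTPases that mark the membranes of the secretory and endocytic routes and recruit the machinery for vesicle movement and tethering. Sorting nexins and Vps proteins, many of them first found in yeast mutants, sort cargo on endosomes, and adaptor complexes link cargo to clathrin and other coats. Synaptotagmins sense calcium, and syntaxins, Vamp and Snap-25 family proteins form the SNARE bundles that fuse vesicles with their target membrane, which in hypothalamic neurons serves the release of transmitters and peptide hormones.

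The promoters of Ap2a2, Ap2a1 and Snx5 are shown because Ap2a2 and Snx5 had the smallest unadjusted p of any member and Ap2a1 encodes the partner form of Ap2a2. Both adaptor genes encode large alpha subunits of the endocytic adaptor AP-2, and Snx5 encodes a sorting nexin of the endosome. Sequences are from RefSeq (GRCm38.p6) and run 5′ to 3′ on the strand of the gene, from 250 bases before to 50 after its start. They lie at chr7:141561930-141562229 (plus strand) for Ap2a2, at chr7:44929441-44929740 (minus strand) for Ap2a1 and at chr2:144270523-144270822 (minus strand) for Snx5. Capitals mark, on either strand, the GC box with the letters GGGCGG. They also mark the CCAAT box, and the E-box with the letters CACGTG.
Ap2a2: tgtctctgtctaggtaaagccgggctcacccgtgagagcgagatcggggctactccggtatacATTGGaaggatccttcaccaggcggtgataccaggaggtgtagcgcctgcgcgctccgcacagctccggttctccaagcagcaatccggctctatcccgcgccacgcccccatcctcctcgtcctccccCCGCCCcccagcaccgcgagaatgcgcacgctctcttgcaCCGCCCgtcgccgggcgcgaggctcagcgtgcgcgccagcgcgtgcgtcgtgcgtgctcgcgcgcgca
Ap2a1: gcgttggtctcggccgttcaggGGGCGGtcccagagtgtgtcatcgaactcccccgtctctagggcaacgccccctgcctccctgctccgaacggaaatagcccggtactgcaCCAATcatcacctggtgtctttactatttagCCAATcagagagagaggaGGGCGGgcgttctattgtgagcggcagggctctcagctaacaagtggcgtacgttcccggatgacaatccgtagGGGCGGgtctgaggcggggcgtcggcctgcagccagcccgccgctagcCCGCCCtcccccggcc
Snx5: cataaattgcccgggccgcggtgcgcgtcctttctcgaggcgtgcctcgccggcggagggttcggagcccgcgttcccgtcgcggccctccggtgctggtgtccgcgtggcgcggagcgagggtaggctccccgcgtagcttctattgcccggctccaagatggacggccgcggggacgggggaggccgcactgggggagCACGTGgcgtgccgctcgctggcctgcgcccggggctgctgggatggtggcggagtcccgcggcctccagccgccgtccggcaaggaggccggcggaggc
Both AP-2 promoters held GC and CCAAT boxes, with 2 and 1 in Ap2a2 and 4 and 2 in Ap2a1, while Snx5 held a single E-box. Of the 115 genes 83 had a promoter in the table, and 73.5% of these held a GC box, against 35.9% of all 27025 promoters. Their median GC content was 62.7%, against 52.7% for all promoters. E-boxes occurred in 13.3% of the member promoters against 7.24% of all, CCAAT boxes in 41% against 37.9% and a TATA box (TATAAA) in 3.61% against 14.2%. The palindromic CLEAR element of lysosomal genes, which contains the E-box, occurred in 3 member promoters, those of Rab24, Vps16 and Vps33a (3.61% against 0.359% of all). The full cAMP response element TGACGTCA was found in 1 member promoter (1.2% against 1.88%). Its shorter form TGACG, which lies within the full element, was found in 33 (39.8% against 21%), among them 19 of 30 Rab promoters (63.3%). These matches describe the letters only and are not shown to be sites.

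Coverage of the genes differed widely between replicates. Of the 115 genes 110 had a usable ratio in 1 or more replicates, 83 had one in all 3 replicates of some time, and 10 had one in all 9. The 5 without any ratio were Ap4b1, Rab38, Snx10, Snx11 and Vps13b. Replicate 3 of 18 h held ratios for 107 of the genes (93%), whereas replicate 5 of 18 h held 36 (31.3%). As a result only 23 of the genes could be tested at 18 h, against 58 at 72 h and 58 at 192 h. Among the 32 never measured in 3 replicates of a time were Syt1, the main calcium sensor of fast release, and Vamp3.

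**Figure D1:**
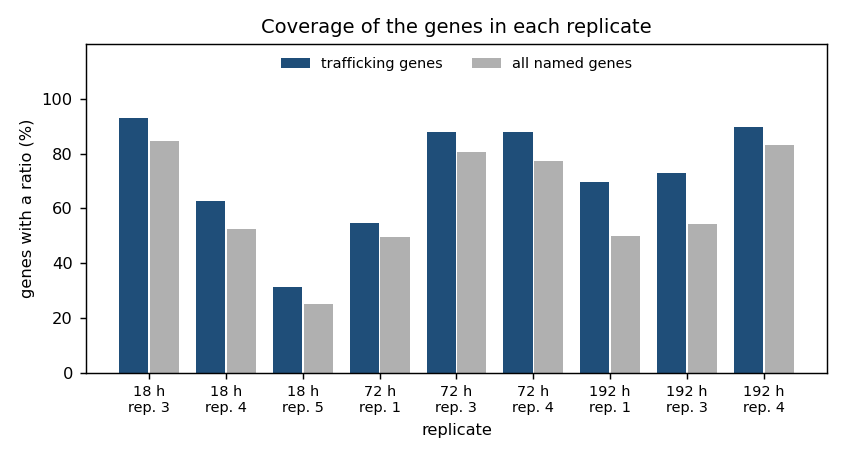
Percentage of genes with a usable ratio in each replicate, for the 115 trafficking genes (dark bars) and all 8726 named genes (grey bars); times run from left to right. Replicate 5 of 18 h is lowest in both, with 31.3% of the trafficking genes and 25.1% of all genes.

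No trafficking gene passed the test at any time. By limma with Benjamini-Hochberg adjustment, 0 of 23 members were called at 18 h, 0 of 58 at 72 h and 0 of 58 at 192 h (adjusted p under 0.05), and the background over all genes tested was 0% at each time. At an unadjusted p under 0.05 stood 2 of 23 members at 18 h (5.97% of all 1441 genes), 4 of 58 at 72 h (5.56% of 3598) and 1 of 58 at 192 h (2.78% of 3277), so the members' shares lay near those of all genes. By direction, 1 member was higher and 1 lower at 18 h (0.416% and 5.55% of all genes). At 72 h all 4 were higher and none lower (2.7% and 2.86%), and at 192 h the 1 was higher (0.854%, and 1.92% lower). The 6 genes concerned were Snx5, Vps4a, Stx3, Sv2a, Ap2a1 and Ap2a2, the last at both later times. The median log2 ratio of the members was 0.01 at 18 h, 0.02 at 72 h and 0.06 at 192 h, beside -0.09, 0.02 and -0.00193 over all genes tested. Above 0 lay 12 of 23, 33 of 58 and 35 of 58 members at these times, beside 31%, 53.9% and 49.4% of all genes. Standard errors of the log2 ratios had medians of 0.17, 0.17 and 0.18 over all genes, which limits what 3 replicates could show.

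**Figure D2:**
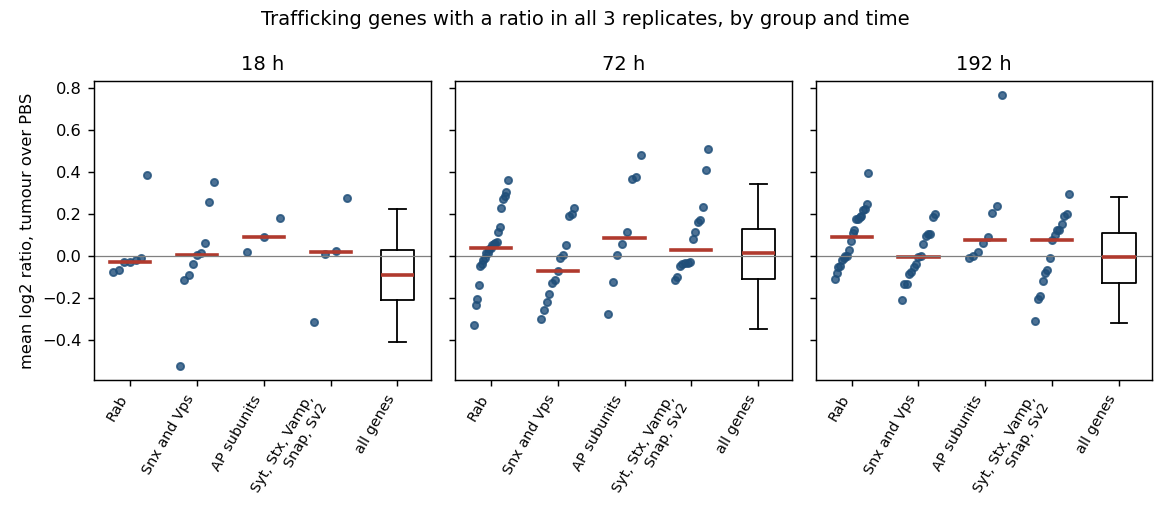
Mean log2 ratio of tumour over PBS for each member with 3 replicates (points) at 18, 72 and 192 h, by gene group, with the group median (red line); the box shows the quartiles and median of all genes tested and its whiskers the 5th and 95th percentiles. Ap2a2 stands highest at 192 h at 0.77 and Snx5 lowest at 18 h at -0.52, and the group medians lie close to 0.

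Most adaptor subunit genes had mean ratios above 0, with Ap2a2 highest at 72 and 192 h, and none passed the test. All 3 measured members were above 0 at 18 h, 6 of 8 at 72 h and 7 of 8 at 192 h, with medians of 0.09, 0.09 and 0.08. The median at 72 h fell below 0 under 6 of 22 other settings, and that at 18 h under 2. Among those at 72 h were median centring (-0.11), the authors' deposited tables (-0.03) and leaving out replicate 1 (-0.06, 13 genes against 8). Leaving out replicate 1, total RNA only and the last print alone hold the same replicates at 72 h, so these settings are not separate checks. Leaving out a replicate also admits genes that only it lacked, so such medians can cover other genes. The median at 192 h was 0.20 without replicate 3 (12 genes, against 8) and 0.02 without replicate 4 (8 genes). Ap2a2 had log2 ratios of -0.73 and -0.14 in replicates 3 and 5 of 18 h, of 0.78, 0.07 and 0.60 in replicates 1, 3 and 4 of 72 h, and of 0.52, 0.43 and 1.36 in replicates 1, 3 and 4 of 192 h. Every replicate was thus below 0 at 18 h and above 0 at both later times, and replicate 4 of 192 h stood highest. Of these 8 replicates 5 rest on 1 array with tumour in Cy5, replicate 4 of 192 h among them, and the dye effect subtracted was -0.45. That effect was estimated only from replicate 3 of 18 h, replicate 4 of 72 h and replicate 3 of 192 h, where both dyes gave a value. Before that correction replicate 3 of 72 h had -0.38, so its sign depends on the correction. Its mean was 0.48 ± 0.37 at 72 h (SD, n = 3; limma p 0.0425, adjusted p 0.838) and 0.77 ± 0.52 at 192 h, a 1.71-fold difference (p 0.00352, adjusted p 1). Without replicate 4 the 192 h value was 0.47. Without dye correction it was 0.47 at 192 h and 0.18 at 72 h. By the authors' deposited table, whose log base is unknown, Ap2a2 averaged 0.18 at 72 h and 0.14 at 192 h.

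Ap2a1, the other alpha subunit, was one of the 10 genes measured throughout. Its log2 ratios were 0.23, 0.14 and -0.10 at 18 h, 0.62, 0.58 and -0.09 at 72 h, and 0.20, 0.19 and 0.24 at 192 h. The 192 h replicate means were nearly equal, while the 72 h replicates overlapped 0. Arrays of opposite dye differed within the 192 h means, with -0.03 (tumour in Cy5) and 0.40 (tumour in Cy3) in replicate 3 and 0.05 and 0.43 in replicate 4. Its mean was 0.37 ± 0.40 at 72 h (SD, n = 3; limma p 0.0407, adjusted p 0.837) and 0.21 ± 0.03 at 192 h (p 0.222). At 72 h, leaving out replicate 1 gave 0.25 and leaving out replicate 4 gave 0.60, while all 13 replicates gave 0.08. Here and below, the setting with all 13 replicates adds the prints whose probe names matched the spot intensities poorly. Values added there may belong to other genes, so this setting cannot check a named gene. The beta subunit gene Ap2b1 and the mu subunit gene Ap2m1, of the same complex, had 0.09 and 0.06 at 192 h. Of AP-3, which serves endosomes and lysosome-related organelles, Ap3m2 had 0.08, 0.50 and 0.54 at 72 h (mean 0.38 ± 0.25) and 0.67, -0.56 and -0.11 at 192 h. Ap3b1 had 0.12, 0.49 and 0.10 at 192 h (mean 0.24 ± 0.22). Of AP-1, which acts at the trans-Golgi network, Ap1b1 was lowest at 72 h, at -0.28.

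**Figure D3:**
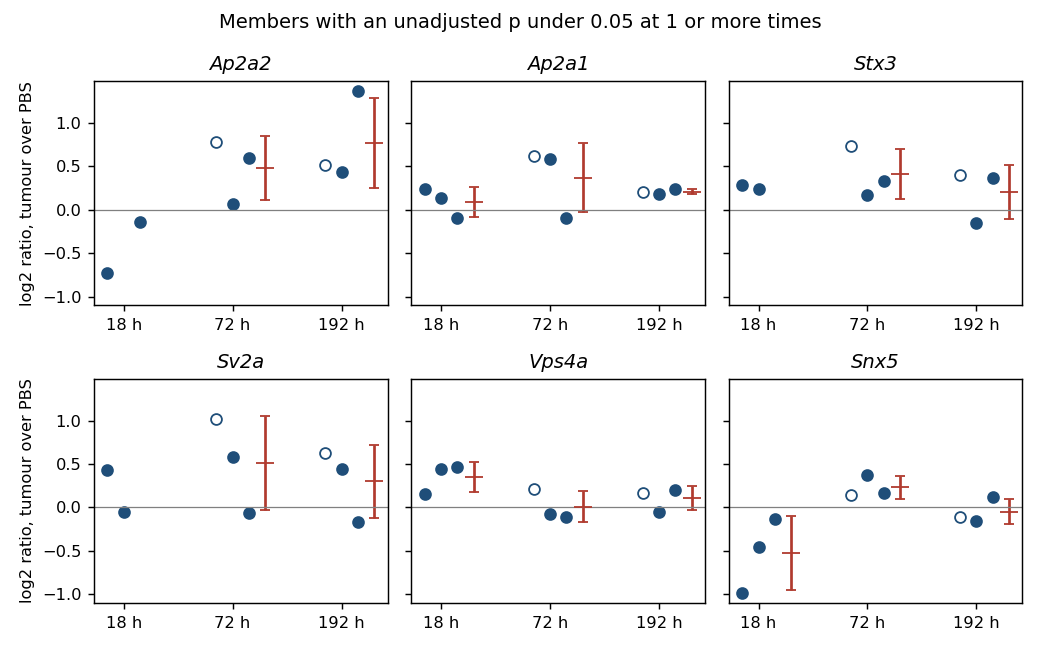
Log2 ratio of tumour over PBS of the 6 members with an unadjusted p under 0.05 at some time, for each replicate of 18, 72 and 192 h; open circles are poly(A) RNA, and the red mark is the mean ± SD of 3 replicates. Ap2a2 lies below 0 in both 18 h replicates and above 0 in all 6 later ones, and Snx5 below 0 in all 18 h replicates.

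Snx and Vps genes held the lowest mean ratio of any member at 18 h, that of Snx5, and had no common direction. Of the measured members 5 of 9 were above 0 at 18 h, 5 of 13 at 72 h and 7 of 15 at 192 h, with medians of 0.01, -0.07 and -0.00499. Snx5, a sorting nexin that works with the retromer coat in returning receptors from endosomes to the Golgi, had -0.98, -0.46 and -0.14 at 18 h, 0.15, 0.38 and 0.17 at 72 h, and -0.11, -0.15 and 0.12 at 192 h. All 18 h replicates were below 0 and all 72 h replicates above 0. Its mean at 18 h was -0.52 ± 0.43 (SD, n = 3), a 0.695-fold level (limma p 0.0079, adjusted p 0.618), and it was -0.30 without replicate 3. In replicate 3 both arrays were low, at -0.87 with tumour in Cy5 and -1.09 with tumour in Cy3, while replicates 4 and 5 rest on 1 array each. That array with tumour in Cy5 had the widest spread over all genes of any dye-swapped array (SD 0.83). The value was -0.26 with loess within print blocks, -0.20 with all 13 replicates on 5 prints and -0.01 by the authors' deposited table.

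Vps4a, an ATPase that takes apart the ESCRT-III filaments of the endosome, had 0.15, 0.44 and 0.47 at 18 h, -0.08 and -0.11 in replicates 3 and 4 but 0.21 in replicate 1 at 72 h, and 0.17, -0.05 and 0.20 at 192 h. Only the 18 h replicates were all above 0. The 18 h mean was 0.35 ± 0.18 (SD, n = 3; limma p 0.0296, adjusted p 0.767), and it was 0.11 with all 13 replicates and 0.000843 by the authors' deposited table. Its arrays of opposite dye differed at 18 h, with 0.53 and -0.23 in replicate 3 and -0.06 and 0.94 in replicate 4. Snx16 was also above 0 in each 18 h replicate (0.31, 0.16 and 0.30). Such one-sided sets numbered 2 of 23 members above 0 (8.7%, against 6.18% of all genes) and 2 of 23 below 0 (8.7%, against 19.6%) at 18 h. Vps28, an ESCRT-I subunit gene measured throughout, averaged -0.09 ± 0.11, -0.18 ± 0.46 and -0.07 ± 0.07 at the 3 times. The lipid transfer protein gene Vps13a had -0.61, -0.15 and -0.13 at 72 h, and Snx24 had -0.61, -0.08 and -0.09. Vps45, which binds syntaxins, had -0.03, -0.17 and -0.42 at 192 h (mean -0.21 ± 0.20) and 0.56, -0.06 and 0.11 at 72 h.

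Rab genes had ratios in either direction, and none had an unadjusted p under 0.05 at any time. The highest means were those of Rab3c at 18 h (0.39 ± 0.94), Rab7 at 72 h (0.36 ± 0.60) and Rab1a at 192 h (0.40 ± 0.48; SD, n = 3 each). Above 0 were 1 of 7 at 18 h, 15 of 23 at 72 h and 13 of 20 at 192 h, with medians of -0.03, 0.04 and 0.09. The 18 h median was above 0 under 6 of 22 other settings, at 0.13 without replicate 5 (23 genes, against 7) and 0.04 without replicate 3 (7 genes). The 192 h median was 0.05 without replicate 1 (26 genes, against 20) and 0.02 with all 13 replicates (23 genes). Rab1a, which acts from the endoplasmic reticulum to the Golgi, had 0.42, 0.87 and -0.09 at 192 h (limma p 0.0785), so that 1 replicate lay below 0. Rab7, the Rab of late endosomes and lysosomes, had -0.26, 0.46 and -0.22 at 18 h, 1.00, 0.29 and -0.20 at 72 h, and 0.46, 0.27 and 0.02 at 192 h. Replicates of opposite sign lay side by side at the first and second time, and only at 192 h did all 3 lie above 0 (mean 0.25 ± 0.22, SD, n = 3). Arrays of opposite dye disagreed there, each corrected with the dye effect of the other replicates. Rab7 had -0.09 and 0.63 in replicate 3 and 0.30 and -0.26 in replicate 4 of 192 h (tumour in Cy5 first). The sign of its 192 h mean turned in the authors' deposited table. Rab14, of the Golgi and early endosomes, averaged -0.02 ± 0.22, 0.14 ± 0.31 and 0.23 ± 0.18 at the 3 times, and Rab1b, of transport from the endoplasmic reticulum, -0.03 ± 0.29, -0.02 ± 0.43 and 0.13 ± 0.07. Rab2a, which acts between the endoplasmic reticulum and the Golgi, averaged -0.07 ± 0.22, -0.04 ± 0.32 and -0.05 ± 0.24.

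At 72 h the Rab genes of smallest p with one sign in all replicates were Rab30, a Golgi Rab (0.15, 0.49 and 0.28), Rab31, an endosomal Rab of the Rab5 group (0.35, 0.29 and 0.22), and on the lower side Rab18, of lipid droplets and the endoplasmic reticulum (-0.22, -0.76 and -0.00154 in replicates 1, 3 and 4). Rab31 had nearly equal replicate means at 192 h as well (0.19, 0.15 and 0.19), although the 0.15 averages 0.54 with tumour in Cy5 and -0.24 with tumour in Cy3, after -0.68 and 0.52 in replicates 3 and 5 of 18 h. Rab11b, of recycling endosomes, had 0.14, 0.08 and 0.43 at 192 h. One-sided members numbered 9 of 58 above 0 (15.5%, against 15% of all genes) and 7 below (12.1%, against 12%) at 72 h. At 192 h they numbered 11 above (19%, against 11.8%) and 5 below (8.62%, against 12.7%). Rab3a, the Rab of synaptic vesicles, had 0.53, -0.13 and -0.21 at 72 h and -0.19, -0.01 and 0.05 at 192 h. Rab3c, of the same group, spanned the widest range at 18 h, with 1.44, 0.07 and -0.35.

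Genes of the release machinery were led by Stx3 and Sv2a at 72 h, with none past the test. Of the measured members 3 of 4 were above 0 at 18 h, 7 of 14 at 72 h and 8 of 15 at 192 h, with medians of 0.02, 0.03 and 0.08. Without replicate 1 the medians were -0.02 at 72 h (24 genes, against 14) and -0.01 at 192 h (21 genes, against 15). The added genes may account for part of these shifts, which was not tested. Stx3, a syntaxin of the plasma membrane, had 0.73, 0.17 and 0.34 at 72 h, each from 1 array with tumour in Cy5 (mean 0.41 ± 0.29, SD, n = 3; limma p 0.0298, adjusted p 0.807). Its sign turned with median centring (-0.04) and in the authors' deposited table (-0.27). At 192 h it had 0.40, -0.15 and 0.36, and at 18 h 0.28 and 0.24 in the 2 replicates measured. The dye effect subtracted for Stx3 rests on replicate 3 of 192 h alone, where both dyes gave a value.

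Sv2a, a glycoprotein of synaptic vesicles, had 1.02, 0.58 and -0.06 at 72 h and 0.62, 0.45 and -0.17 at 192 h, so that in both cases 1 replicate lay below 0. Its 72 h mean was 0.51 ± 0.54 (SD, n = 3; limma p 0.0364, adjusted p 0.807), and 0.26 without replicate 1. Its dye effect was -0.88, and arrays of opposite dye disagreed, with -0.61 and 1.77 in replicate 3 and 0.72 and -0.83 in replicate 4 of 72 h (tumour in Cy5 first). With loess within print blocks the 72 h value was 0.13, and by the authors' deposited table it was 0.07.

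The core SNARE genes of synaptic vesicle fusion gave no shared direction. Snap25 had 0.87, -0.62 and -0.17 at 18 h and 0.03, -0.25 and 0.14 at 72 h, with means of 0.03 ± 0.76 and -0.03 ± 0.20. Stx1a had 0.59 and 0.24 in replicates 3 and 4 of 18 h, -0.07 and -0.75 in replicates 3 and 4 of 72 h, and 0.55, -0.05 and -0.12 at 192 h. Syt1 reached 2 replicates at most, with -0.65 and 0.13 at 72 h and 0.71 and 0.02 at 192 h. Syt4, a synaptotagmin of dense-core vesicles, stayed near 0 on average, with 0.01 ± 0.40, -0.04 ± 0.19 and -0.01 ± 0.23 at the 3 times. Snap91 was below 0 in all 18 h replicates (-0.33, -0.35 and -0.25, mean -0.31 ± 0.05; limma p 0.11) and averaged 0.12 ± 0.42 and 0.10 ± 0.37 later. Its 18 h arrays of opposite dye were less alike, each corrected with the dye effect of the other replicates. They had -0.52 and -0.13 in replicate 3 and 0.04 and -0.74 in replicate 4 (tumour in Cy5 first). The sign of the 18 h mean of Snap91 turned with median centring. Vamp7, a lysosomal Vamp, was lowest at 192 h, with -0.67, -0.18 and -0.07.

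Differences between times were tested directly, and no member passed. All 18 h replicates were total RNA on the last of the 5 prints (print 5). At 72 h replicate 1 was poly(A) RNA on print 4. At 192 h replicate 1 was poly(A) RNA on print 3 and replicate 3 was total RNA on print 4. The remaining replicates were on print 5, so time cannot be fully told apart from print and RNA kind. For 72 against 18 h 0 of 15 members were called and 1 had an unadjusted p under 0.05 (0% and 5.21% of 998 genes), and this was Snx5, on the higher side (4.81% of all genes). For 192 against 18 h none of 16 members passed either threshold (0% and 3.39% of 973 genes, 2.16% higher), nor did any of 35 for 192 against 72 h (0% and 2.27% of 1892 genes, 2.06% lower). Snx5 was 0.76 higher on the log2 scale at 72 h than at 18 h (95% interval 0.24 to 1.27; limma p 0.00709, adjusted p 0.841), and 0.20 higher with loess within print blocks, where its 72 h ratio was -0.06. At 192 h it was 0.48 higher than at 18 h (interval -0.04 to 0.99). Next in order for 72 against 18 h were Vps4a at -0.35 and Snap91 at 0.43. For 192 against 72 h the smallest p belonged to Vps4b (-0.32), Snx19 (0.31) and Vps45 (-0.41). Over all genes tested in these 3 comparisons, taken in the same order, the median difference was 0.12, 0.08 and -0.08. Members with all measured replicates on opposite sides of 0 at the times compared, but too few replicates for this test, numbered 2 of 61 for 72 against 18 h (3.28%, against 9.69% of all genes). They numbered 3 of 62 for 192 against 18 h (4.84% against 6.79%) and 1 of 54 for 192 against 72 h (1.85% against 8.14%).

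**Figure D4:**
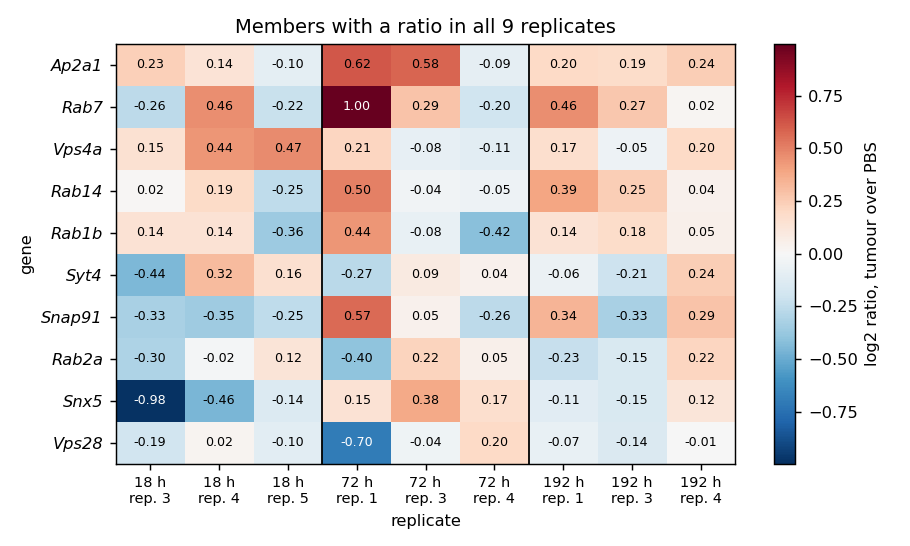
Log2 ratios of tumour over PBS for the 10 members with a value in all 9 replicates, ordered by their mean, with the 3 replicates of each time side by side. Ap2a1 is highest on average, Snx5 is lowest at 18 h at -0.98, and Rab2a holds both signs at every time.

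Replicates of the same time shared little of their pattern over the members. The correlation across members, which are not independent replicates, had a median of -0.02 over 9 pairs of replicates of the same time (range -0.20 to 0.30) and of 0.08 over 27 pairs of different times (range -0.33 to 0.35). Dye-swapped arrays of 1 replicate hold the same RNA and were compared after each was corrected with the dye effect of the other replicates. Across members their ratios correlated at 0.42 in replicate 3 of 18 h (76 genes), where 72.4% of the members had the same sign on both arrays. In the other 6 replicates labelled both ways the correlation was -0.54 to -0.02, and over all genes it was 0.30 in replicate 3 of 18 h and -0.58 to -0.11 in the others. The arrays share their RNA pair but not their dyes. The subtracted dye effect enters their ratios with opposite signs, so an error in it shifts them oppositely and lowers the correlation. For Rab32 only replicate 3 of 18 h and replicate 4 of 192 h gave both dyes, and each was corrected with the other. Its ratios were 1.66 (tumour in Cy5) and -0.24 (tumour in Cy3) in the former, and -1.02 and 0.88 in the latter. Since each replicate corrects the other, the gap between arrays must be equal and opposite in the 2 replicates. It illustrates the arithmetic and is not a separate observation. How much of the low correlations comes from error in the dye effect, and what else lowers them, was not tested. The dye of each array was taken from its label, and whether a label is exchanged was not tested; an exchanged label would change the mean of that replicate.

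**Figure D5:**
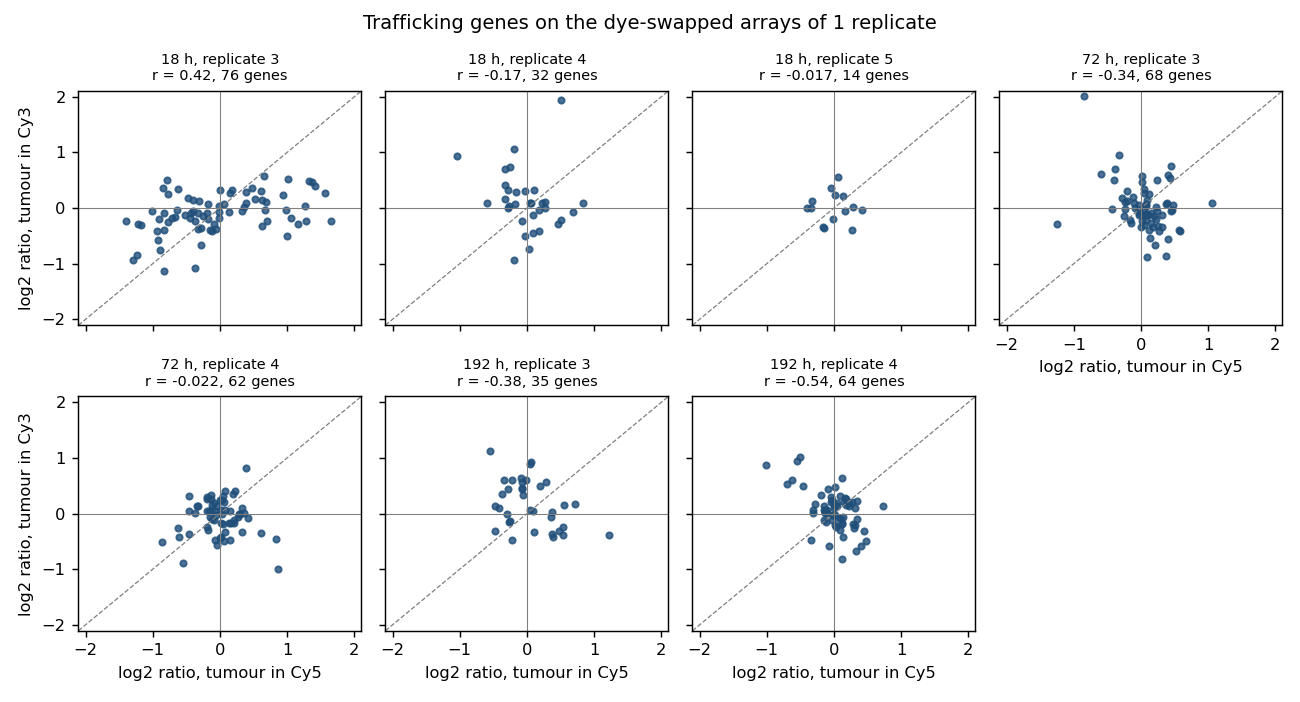
Log2 ratio of tumour over PBS of each member on the 2 arrays of a replicate, with tumour in Cy5 (horizontal axis) and in Cy3 (vertical axis), for the 7 replicates labelled both ways; the dashed line marks equal values. Points follow the line best in replicate 3 of 18 h (r 0.42), and in the other replicates r is below 0.

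In replicate 3 of 18 h 5 members lay below -0.5 on both arrays, Rab4a, Stx4a, Snx5, Vps45 and Rab2b (6.58% of 76, against 7.04% of all genes), and 2 lay above 0.5 on both, Stx19 and Vps16 (2.63% against 2.8%). Over all genes the ratios of this replicate had an SD of 0.83 with tumour in Cy5 and 0.43 with tumour in Cy3. The arrays of the other replicates labelled both ways had SDs of 0.29 to 0.53. A fixed cut of 0.5 is thus more easily passed on the tumour in Cy5 array of replicate 3 of 18 h. Rab4a, of early endosome recycling, had -1.29 with tumour in Cy5 and -0.93 with tumour in Cy3, and Stx4a, a plasma membrane syntaxin, had -1.24 and -0.84. In replicate 5 of 18 h Rab4a had 0.17 and -0.06, so the low ratio was not found there. Elsewhere Syt10 was above 0.5 on both arrays of replicate 4 of 18 h (3.12% of 32 members, against 0.39%), and Syt10 and Vps16 were below -0.5 on both arrays of replicate 4 of 72 h (3.23% of 62, against 0.673%). No member passed on both arrays in replicate 3 of 72 h (0.322% of all genes above 0.5 and 0.0744% below -0.5), replicate 3 of 192 h (0.129% and 0.258%) or replicate 4 of 192 h (0.0663% and 0.199%). Replicate 3 of 18 h also stood apart over all genes, with a median log2 ratio of -0.23 over the genes tested at 18 h, against -0.03 and 0.01 in replicates 4 and 5. Over the 4714 genes with a ratio on both of its arrays the median was -0.09 (2055 above 0), and over the 76 members so measured -0.14 (32 above 0). In the same measure, markers of astrocytes had a median of -0.53 (2 of 2 below 0). Markers of microglia and macrophages had one of 0.37 (3 of 5 above 0), from -0.36 for C1qb to 0.93 for Adgre1. Hypothalamic markers had a median of -0.09 (5 of 10 above 0), from -0.91 for Ghrh to 0.46 for Otp. Neuronal markers had a median of 0.09 (5 of 8 above 0) and those of oligodendrocytes and myelin one of -0.21 (2 of 4). Markers of neighbouring brain regions had a median of -0.34 (1 of 4 above 0) and those of choroid plexus and ependyma 0.15 (1 of 2). Endothelial and mural cells had only Pdgfrb (-0.10) and the pituitary only Lhb (0.54). The part of these markers in the low and high ratios of the members was not tested.

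Other genes of these routes, taken from 3 lists, likewise held no call. Of 52 further endosome and clathrin genes 26 were on the array, and 7, 16 and 13 were measured at 18, 72 and 192 h, of which 2, 10 and 4 were above 0. Chm, the Rab escort protein that presents Rabs for prenylation, was the one with an unadjusted p under 0.05 (1 of 7 lower at 18 h, against 5.55% of all genes), at -1.21, -0.70 and 0.19 at 18 h (mean -0.57 ± 0.71; limma p 0.0192, adjusted p 0.669). Of 44 further synaptic release genes 28 were on the array, and 1 of 5, 7 of 15 and 8 of 15 were above 0. Cplx1, encoding complexin of the fusion machinery, had 0.52, -0.06 and 0.34 at 72 h and 0.17, 0.29 and 0.32 at 192 h, and Pclo, a scaffold of the active zone, spanned 0.98 to -1.93 at 192 h. Of 57 Golgi and endoplasmic reticulum transport genes 34 were on the array, with 1 of 5, 12 of 17 and 10 of 19 above 0. For 72 against 18 h Napg, a SNAP protein that helps recycle SNAREs, and Exoc4, a subunit of the exocyst tether, were higher at an unadjusted p under 0.05, with none called. Each was 1 of 4 measured in its list, against 4.81% of all genes.

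Markers of cell types gave little hold on the makeup of the samples, and in bulk tissue fewer cells of a type and less RNA per cell cannot be told apart. Of 14 neuronal markers 10 were on the array, and 1, 8 and 5 were measured at 18, 72 and 192 h, with 1, 5 and 2 above 0 and medians of 0.03, 0.00441 and -0.00182. The 1 measured at 18 h was Snap25, itself a member, whose replicates ran from -0.62 to 0.87. Snap25 is also among the 8 at 72 h, so these values are not separate from the members. Oligodendrocyte and myelin markers had medians of -0.26 (3 measured) at 72 h and 0.20 (4 measured) at 192 h, and astrocyte markers 0.16 (2 measured) and 0.06 (3 measured). Of 16 markers of hypothalamic neurons 12 were on the array, of which 11 had a ratio in some replicate, and 2, 5 and 6 were measured at the 3 times. Their medians were -0.03, -0.04 and 0.23, with 4 of 6 above 0 at 192 h, which exceeds the median of each member group at that time. None of the markers measured had an unadjusted p under 0.05, and their part in the ratios above was not tested.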

How the data were processed

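Members and gene lists were chosen with earlier results of these data known. Per the file headers, the deposited scanner intensities are corrected for local background and carry a saturation factor (a fraction of 1 or less) per spot. The authors' deposited value tables hold a log ratio of unknown base, treated as a score and used as an alternative only; their column medians ran from -0.00792 to 0.0109, and all followed tumour over PBS. Flagged, saturated or non-positive spots were dropped, each of 3 scans was normalized by loess (span 0.3, 4 iterations; R 4.3.3, limma 3.58.1), and scans were averaged. Each probe's dye effect (SD 0.30 log2) was subtracted. It was the mean over those of the 7 replicates labelled both ways in which both arrays gave the probe a value. For some probes it thus rests on few replicates. A gene was its brightest probe and was tested if all 3 replicates had a value, by 1 limma fit with a mean per time, two-sided, Benjamini-Hochberg over all genes. Prints 3 to 5 were used: ribosomal protein spots had a median intensity percentile of 93.4 to 98.4 there, but 67.2 and 46.3 on prints 1 and 2. Between 14.8% and 83% of the spots of these arrays were usable. Named members were, per time, up to 5 of smallest p in each direction with one sign in all replicates, those with an unadjusted p under 0.05, those measured in all 9 replicates, 3 of smallest p between times, and 6 core release genes. Genes outside this rule (such as Rab3c, Ap2b1, Ap2m1 and Ap1b1, and those compared between arrays of 1 replicate) were named after their values were seen. The scripts were tested on simulated data.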

Additional observations from a re-analysis of the deposited data

Results flagged for a closer look

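For 5 members every replicate of 1 time lay on one side of 0 and every replicate of another time on the opposite side, while too few replicates held a value for the test reported above. With 2 replicates accepted, the differences were tested by limma, and none passed. Print and RNA kind of some replicates also differed between times, as given above. Ap2a2 averaged 0.48 at 72 h (n = 3), against -0.43 at 18 h (n = 2), a difference of 0.91 (p 0.0267, adjusted p 0.79, limma), and 0.77 at 192 h (n = 3), a difference of 1.20 from 18 h (p 0.00669, adjusted p 0.921, limma). Stx1a averaged -0.41 at 72 h, against 0.42 at 18 h (n = 2 each), a difference of -0.83 (p 0.0394, adjusted p 0.79, limma). Ap4m1 averaged -0.41 at 192 h, against 0.17 at 18 h (n = 2 each), a difference of -0.57 (adjusted p 0.921, limma). Syt8 averaged 0.13 at 192 h (n = 3), against -0.25 at 18 h (n = 2), a difference of 0.38 (adjusted p 0.921, limma). Rab13 averaged 0.27 at 192 h (n = 2), against -0.20 at 72 h (n = 3), a difference of 0.48 (adjusted p 0.999, limma).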

How the results depend on the processing

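No member passed the test (limma, adjusted p under 0.05) at any time under 22 alternatives or between times under 26, and neither result changed when replicates were left out in turn. Some alternatives hold the same replicates and are not separate checks. At 18 h, total RNA only and print 5 alone both hold the replicates of the reported setting. The number of members at an unadjusted p under 0.05 ran from 0 to 7 at 18 h (2 in the reported setting), 0 to 5 at 72 h (4) and 0 to 3 at 192 h (1), and between times from 0 to 4. Over 21 of the alternatives, without the authors' deposited tables, the median log2 ratio of the members ran from -0.09 to 0.06 at 18 h. It ran from -0.03 to 0.07 at 72 h and from 0.00227 to 0.11 at 192 h. Leaving out 1 replicate at a time gave -0.09 to 0.05, -0.03 to 0.07 and 0.00449 to 0.10. These medians can cover other genes, since leaving out a replicate admits genes that only it lacked. Of the 8 ratios with an unadjusted p under 0.05 one changed sign, that of Stx3 at 72 h, to -0.0391 with median centring and -0.273 in the authors' deposited tables; the cause was not tested. The smallest adjusted p of any of the 8 under an alternative was 0.18 (limma), for Snx5 at 18 h with dye orientation as a covariate. Same-numbered replicates deviated together only weakly (correlations -0.10 to 0.22, against -0.25 to 0.13 for different numbers). The highest correlations, 0.22 and 0.16, were of same-numbered replicates, but the numbers were not taken to pair them. With the replicate number as a block 0 members were called in each of the 3 comparisons between times. That fit held only the 10 members with a ratio in all 9 replicates. Keeping probes without a dye estimate and centring each replicate on its median were chosen after seeing the data. With other scalings the median ratio of all genes ran from -0.158 to -0.0231 at 18 h. Missing ratios, above all in replicate 5 of 18 h, limit the number of genes tested.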

Other observations

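Several members were spotted with more than 1 probe, and the brighter one was used. The probes disagreed in sign in some replicates: for Vamp5, a Vamp of muscle and other peripheral tissues, the ratios in replicate 3 of 18 h were 0.41 and -0.34. For Vps37a, an ESCRT-I subunit gene, they were -0.54 and 0.18 in the same replicate and 0.78 and 0.11 in replicate 3 of 192 h. For Vps50, a subunit of an endosomal recycling tether, they were -0.23 and 0.41 in replicate 3 of 18 h. Vps35l, a subunit gene of the retriever complex, had -0.07 and 0.24 in replicate 3 of 72 h. These pairs were chosen after their values were seen, and no test was made.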
